A study of Mus musculus with 18 samples.

Results

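Peritoneal macrophages of TLR4-K810R mice were compared with those of TLR4-WT mice, both after LPS, across all genes. TLR4-K810R mice carry a knock-in that replaces lysine 810 of the receptor by arginine, made by CRISPR/Cas9 on the C57BL/6 background. Cells of both genotypes received LPS at 100 ng/ml, and their RNA was taken 6 h later and sequenced. The comparison used 6 of the 18 libraries of the series, 3 per group (TLR4-WT LPS and TLR4-K810R LPS), as their sample labels give the groups. The mock-treated libraries of both genotypes, and the LPS-treated libraries of TLR4-K730R mice, a second lysine-to-arginine knock-in, are given beside the results as background, with 3 libraries in each group. The study's methods describe peritoneal macrophages drawn after an injection of thioglycolate, a broth that brings monocytes into the cavity. The age and sex of the animals, and whether the donors of the RNA carried 1 or 2 mutant alleles, are not given in the sources used here. Nothing in the labels says that libraries of a group came from separate animals, so the p-values measure the spread between these libraries, which may be technical.

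TLR4 is the receptor through which macrophages sense LPS, the endotoxin of gram-negative bacteria. On binding, its cytoplasmic TIR domain recruits MAL and MyD88, which lead to NF-κB and to early cytokine genes, and, after uptake, TRAM and TRIF, which lead to IRF3 and to type I interferon. Interferon then acts back on the same cells through its own receptor and raises a second wave of genes, among them guanylate-binding proteins, chemokines of the CXCL9 to CXCL11 group and Nos2. LPS also lowers many genes, those of sterol synthesis included. The question put by the study's design was whether lysine 810 of the TIR domain, an acetylated residue, bears on this response.

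The changed codon lies in the last of the 3 coding exons of Tlr4, on the plus strand of chromosome 4 (GRCm38, GENCODE vM21 annotation). The reference coding strand around it, chr4:66841369-66841431, is printed because it is the only designed difference between the genotypes. Capitals mark codon 810, which the knock-in turns into an arginine codon.
Tlr4 codon 810 and 30 bases on each side: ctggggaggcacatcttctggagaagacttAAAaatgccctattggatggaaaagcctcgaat

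Values are FPKM per gene, meaning fragments scaled to transcript length and to the total of the library. No read counts were given, so the depth behind each value is unknown. Differences are TLR4-K810R LPS minus TLR4-WT LPS of log2(FPKM + 1), on which scale the changes of low-level genes are understated. A gene was tested if it reached 1 FPKM in at least 3 of the 18 libraries, and 9707 of 13598 genes with a value did. The test was limma's moderated test on all 6 groups with Benjamini-Hochberg adjustment, the study's threshold being an adjusted p of 0.01. A threshold of 0.05 is given beside it.

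Of the 9707 genes, 13 passed an adjusted p of 0.01 (0.134%), 5 of them higher (0.0515%) and 8 lower (0.0824%) in TLR4-K810R. At 0.05 the number was 213 (2.19%), with 134 higher (1.38%) and 79 lower (0.814%). Without adjustment, 2118 genes had p below 0.05 (21.8%). These calls draw on the spread of all 6 groups. Fitted on the 2 groups alone, limma called 0 genes at either threshold, with a smallest adjusted p of 0.109 and 1723 genes at an unadjusted p below 0.05. The whole distribution was shifted, with a median difference of 0.11 over all genes and 63.2% of genes higher in TLR4-K810R, so counts of higher members are read against that share. Scaling the libraries to each other moved this median to -0.013 and the calls at 0.01 to 4 higher and 15 lower. Between the 5th and the 95th percentile the differences ran from -0.57 to 0.68, and the median standard error was 0.21. The plot of all genes shows the lower calls reaching further from 0 than the higher ones.

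**Figure D1:**
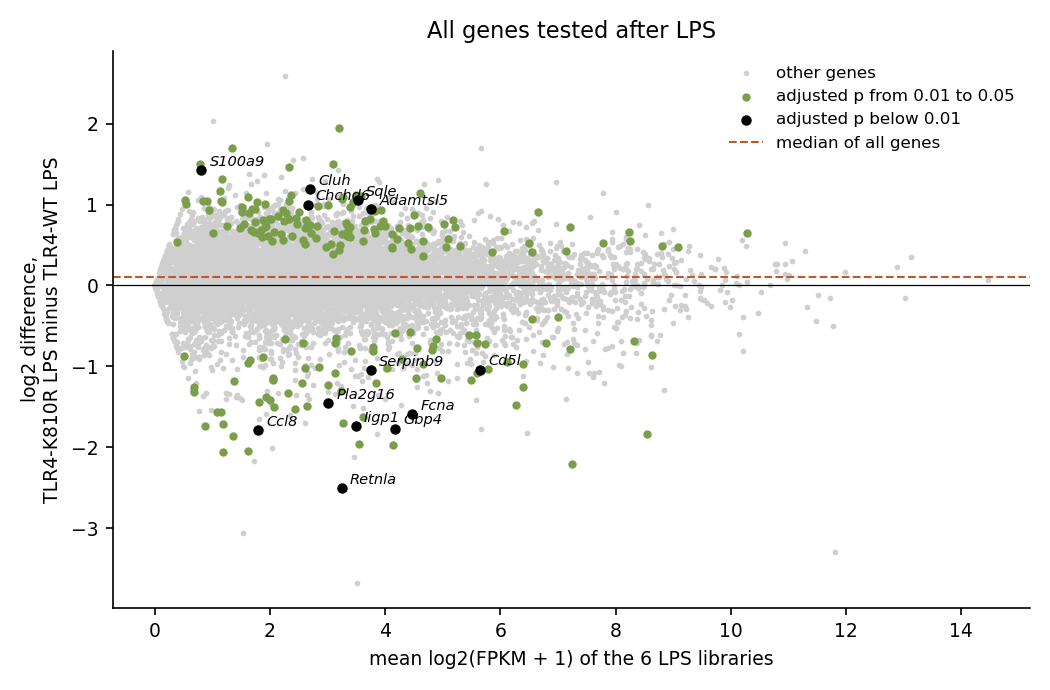
Each point is one of the 9707 genes tested, with its mean log2(FPKM + 1) over the 6 LPS libraries on the x axis and the log2 difference TLR4-K810R LPS minus TLR4-WT LPS on the y axis. The 13 genes past an adjusted p of 0.01 are named, and run from -2.51 for Retnla to 1.42 for S100a9, with the median of all genes at 0.11 (dashed line).

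One library of the compared groups stood apart. TLR4-WT LPS replicate 3 lay closest of its group to TLR4-K810R for 60 of the 79 lower genes and 97 of the 134 higher genes, and it had the lowest library weight of the 18, 0.427. Without it, 283 genes passed 0.01 (198 higher and 85 lower), all 13 genes among them. Leaving out any other single LPS library gave 1 to 6 calls. Pearson correlations of log2 values were 0.9615 to 0.9721 within TLR4-WT LPS, 0.9662 to 0.9735 within TLR4-K810R LPS and 0.9476 to 0.9697 between the groups. Ferritin heavy chain, Fth1, was the top gene of all 6 libraries and took 10.6% of the summed FPKM in TLR4-K810R LPS replicate 1, against 4.82% to 7.01% in the other 5.

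Genes shared by all macrophages summed to 18250 to 19420 FPKM in TLR4-WT LPS and 19920 to 20970 in TLR4-K810R LPS, 17 of 20 listed genes being tested. Markers of other cells were also present, and their part in the results was not tested. Summed B cell markers were 21.4 to 23.5 FPKM against 11.0 to 14.3 (10 of 13 with a value; Ighd, Ebf1 and Vpreb3 at 0 in all 6 libraries), and mast cell markers 13.01 to 24.7 against 6.59 to 10.02, both without overlap between the groups. T and NK cell markers reached at most 0.772 FPKM in sum (10 of 14 with a value, Lck, Ncr1, Klrb1c and Nkg7 having none), with Cd3e, Cd4, Cd5 and Trbc2 at 0. Sums overlapped for neutrophil markers, 306 to 388 and 326 to 352, for mesothelium and fibroblast markers, 66.0 to 228 and 180.5 to 187, and for intestinal epithelium markers, 3.13 to 28.3 and 5.39 to 33.3. Mean log2(FPKM + 1) of the tested neutrophil markers, leaving out S100a9, which met the filter on low values through TLR4-K810R LPS, was 4.001, 4.073 and 4.296 in TLR4-WT LPS and 4.278, 4.353 and 4.394 in TLR4-K810R LPS, with overlap. Of the 6 markers tested besides S100a9, Mmp8 was higher past 0.05, at 5.399, 6.16 and 8.31 against 12.4, 14.6 and 14.4 FPKM (adjusted p = 0.0301). Over all genes, 1.38% were higher past 0.05. S100a9 also passed but is not counted, for the filter just named. Mpo and Cxcr2 were at 0 in all 6 libraries. Lung epithelium transcripts were highest in TLR4-K810R LPS replicates 2 and 3, with Scgb1a1, a secretory airway protein, at 1.47, 0.708 and 0.794 FPKM in TLR4-WT LPS and 1.25, 21.96 and 30.9 in TLR4-K810R LPS, and Sftpc, a surfactant protein, at 0 in all TLR4-WT LPS libraries and at 0, 2.10 and 2.28 in TLR4-K810R LPS. In bulk RNA, fewer cells of a type and less RNA per cell cannot be told apart.

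Before the response genes, the receptor itself was examined. Tlr4 (chr4:66827584-66930284, plus strand) stood at 5.72, 4.76 and 5.01 FPKM in TLR4-WT LPS and at 4.18, 4.74 and 5.28 in TLR4-K810R LPS, a difference of -0.11 ± 0.15 (SE) with an adjusted p of 0.715. The groups overlapped, and a changed codon is not expected to show in this measure, so the level does not check the genotype. Its partner MD-2, the product of Ly96, had 15.7, 14.8 and 10.8 against 11.3, 7.34 and 8.34 FPKM (adjusted p = 0.298). The adaptor genes Myd88 and Tirap, which encodes MAL, stood at differences of -0.09 ± 0.09 (SE) and 0.04 ± 0.13 (SE), neither past the threshold. Over the TLR4 complex and MyD88 pathway, 21 of 24 listed genes were tested, 12 lower and 9 higher, none past 0.05, with a median of -0.09 beside 0.11 for all genes. Cd14, the co-receptor that hands LPS to TLR4, was listed at 0 in 5 of the 6 libraries and at 463 FPKM in the remaining one, so no difference was computed. Such zeros beside values over 5 FPKM occurred in 46 gene-group cases of these 2 groups, and a 0 here can be a failed estimate.

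The 8 lower genes past 0.01 included the interferon-induced GTPase genes Gbp4 and Iigp1 and the chemokine gene Ccl8. Fcna, ficolin A, a lectin of the complement system made by resident macrophages (chr2:25624666-25628030, minus strand), had 40.6, 42.7 and 30.1 FPKM in TLR4-WT LPS and 11.3, 11.0 and 12.8 in TLR4-K810R LPS. All 3 mutant libraries lay below all wild-type ones, with a difference of -1.60 ± 0.17 (SE) and an adjusted p of 0.000602. Retnla, which encodes the secreted protein RELMα of IL-4 activated macrophages (chr16:48842551-48844461, plus strand), fell from 25.3, 29.5 and 13.4 to 3.18, 2.87 and 2.87 FPKM. The difference was -2.51 ± 0.33 (SE) with an adjusted p of 0.00297, and the lowest wild-type library, replicate 3, was still well above the highest mutant one. Ccl8, the chemokine MCP-2 (chr11:82115185-82116799, plus strand), stood at 5.08, 4.56 and 6.94 against 0.855, 0.531 and 1.30 FPKM (-1.79 ± 0.22 (SE), adjusted p = 0.00145). Cd5l, or AIM, a secreted inhibitor of macrophage apoptosis (chr3:87357881-87371073, plus strand), showed 75.2, 82.3 and 57.9 against 33.4, 35.2 and 33.6 FPKM (-1.04 ± 0.16 (SE), adjusted p = 0.00813).

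Gbp4, a guanylate-binding protein that coats intracellular pathogens (chr5:105115767-105139586, minus strand), had 38.6, 36.3 and 23.8 FPKM in TLR4-WT LPS and 7.49, 10.4 and 8.49 in TLR4-K810R LPS, a difference of -1.77 ± 0.25 (SE) (adjusted p = 0.00506). Iigp1, an immunity-related GTPase with the same task, had 25.8, 17.7 and 16.2 against 3.86, 6.57 and 5.26 FPKM (-1.74 ± 0.25 (SE), adjusted p = 0.0056). For both, the groups did not overlap, and replicate 3 was the lowest of the wild-type libraries. Serpinb9, an inhibitor of granzyme B (chr13:33003250-33017957, plus strand), was at 21.0, 19.6 and 15.1 against 9.46, 8.17 and 7.58 FPKM (-1.05 ± 0.16 (SE), adjusted p = 0.0085). Its difference ran from -2.81 to -0.809 over the alternative settings. Pla2g16, a phospholipase (chr19:7557459-7588545, plus strand), was at 13.7, 14.5 and 9.45 against 3.92, 4.30 and 3.47 FPKM (-1.45 ± 0.23 (SE), adjusted p = 0.0085).

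On the higher side, Sqle, squalene epoxidase and an early oxygen-requiring step of sterol synthesis (chr15:59315077-59331192, plus strand), rose from 6.73, 5.51 and 9.16 to 14.97, 16.01 and 15.8 FPKM (1.05 ± 0.15 (SE), adjusted p = 0.00506). Cluh, an RNA-binding protein for transcripts of mitochondrial proteins (chr11:74649495-74670847, plus strand), had 3.04, 3.22 and 3.60 against 10.5, 7.74 and 8.26 FPKM (1.19 ± 0.14 (SE), adjusted p = 0.00145), and Chchd6, a subunit of the complex that shapes mitochondrial cristae (chr6:89383146-89595652, minus strand), had 3.14, 3.87 and 3.37 against 6.99, 7.70 and 9.14 FPKM (1.001 ± 0.16 (SE), adjusted p = 0.0085). Mutant libraries were above every wild-type one for these 3 genes. Adamtsl5, a secreted matrix protein (chr10:80339110-80348412, minus strand), had 8.91, 8.27 and 9.22 against 19.5, 18.01 and 16.2 FPKM (0.94 ± 0.13 (SE), adjusted p = 0.00297). S100a9, a calcium-binding protein abundant in neutrophils (chr3:90692632-90695721, minus strand), passed at very low levels, 0, 0.220 and 0 against 1.63, 1.78 and 2.23 FPKM (1.42 ± 0.22 (SE), adjusted p = 0.0085). It met the filter on low values only through the group where it was high, so it had to differ and is no support for a count of higher genes. Of its 4 libraries at 1 FPKM or more, all were TLR4-K810R. Among the lower genes past 0.05, Klrk1, BC147527, A630012P03Rik and Igkv3-7 met the filter only through TLR4-WT LPS. The plot of the called genes shows every library.

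**Figure D2:**
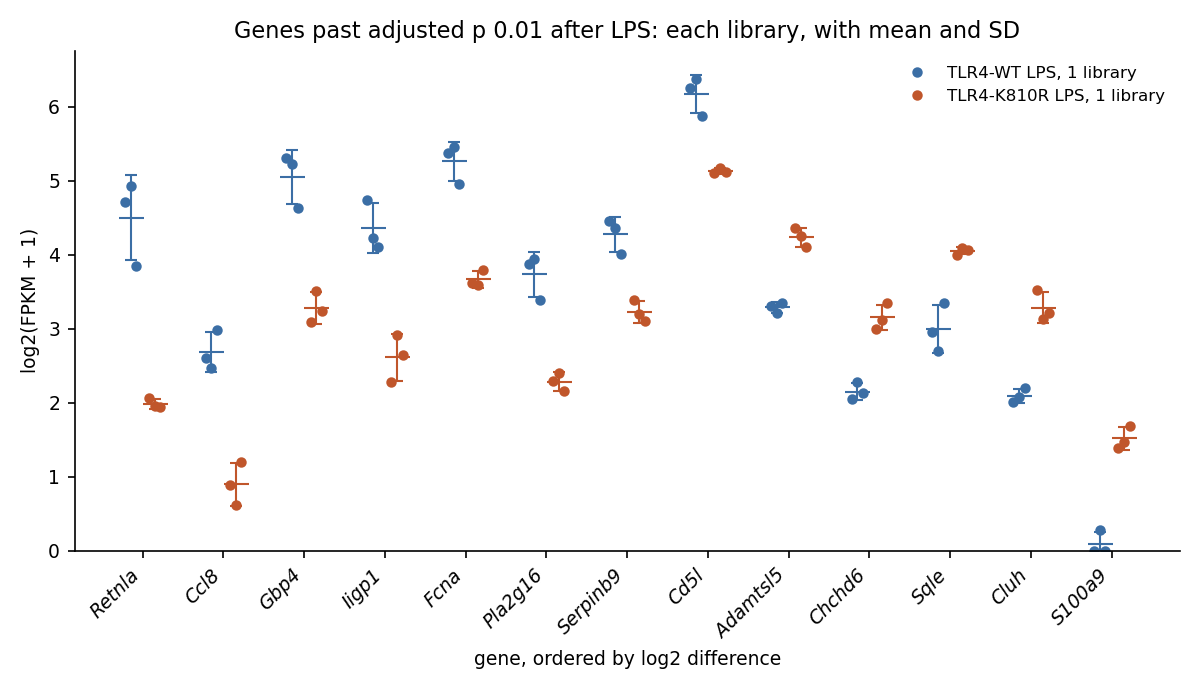
Log2(FPKM + 1) of the 13 genes past an adjusted p of 0.01, ordered from the largest fall to the largest rise, with each of the 3 TLR4-WT LPS libraries in blue and each of the 3 TLR4-K810R LPS libraries in orange (horizontal line: mean; bars: SD). The groups do not overlap for any of the 13 genes.

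Stability differed among these 13 genes. Each was lost in some of the fits that left out libraries, from 2 of 9 fits for Fcna and 3 of 9 for Cluh to 8 of 9 for S100a9 and Chchd6. No direction was reversed for any of the 13 in the 9 left-out fits or in the other alternatives.

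Most interferon-stimulated genes had lower means in TLR4-K810R. Of 53 listed, 44 were tested, of which 40 were lower in TLR4-K810R LPS and 4 higher by their means, with a median of -0.57. Libraries of the groups did not overlap for 28 of the 44, all lower, where 7.89% of all genes tested were lower without overlap. One by one, 3 passed 0.05, all lower, where 0.814% of all genes were lower past it, and none passed 0.01. Without LPS the median of this list was -1.20, as described below. Cxcl10, the chemokine IP-10 that draws activated T cells (chr5:92346638-92348889, minus strand), had 865, 907 and 450.4 FPKM in TLR4-WT LPS and 192, 192 and 208 in TLR4-K810R LPS (-1.83 ± 0.40 (SE), adjusted p = 0.0334). The mutant libraries were nearly equal to each other, whereas wild-type replicate 3 was far below the other two. Ddx58, the RNA sensor RIG-I, had 78.4, 69.3 and 61.1 against 19.7, 51.1 and 33.1 FPKM (adjusted p = 0.0455), and Phf11d 70.4, 70.8 and 45.04 against 38.3, 35.1 and 36.5 (adjusted p = 0.0461). Rsad2, the antiviral enzyme viperin, just missed the threshold at 907, 993 and 402 against 295, 274 and 306 FPKM (adjusted p = 0.0506).

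Several members did not separate the groups. Irf7, Oas3, Dhx58 and Bst2 had differences of -0.22, -0.16, -0.09 and 0.06 with overlapping libraries, and Isg15 was listed at 0 in 1 library of each group, so its difference of -0.16 ± 1.86 (SE) rests on those zeros. Among the upstream genes Stat2 stood at 73.7, 84.9 and 54.0 FPKM against 43.1, 47.8 and 38.8 (adjusted p = 0.0718). Irf1 and Irf9 were at -0.15 and 0.24.

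Guanylate-binding proteins and immunity-related GTPases had a median of -1.15, or -0.711 with no filter on low values. All 8 members tested of 20 listed had lower means, 6 without overlap, and 2 passed 0.01, where 7.89% of all genes were lower without overlap and 0.0824% lower past 0.01. Gm4951, an Iigp1 relative, had 8.83, 6.66 and 3.67 against 1.499, 1.32 and 1.69 FPKM (adjusted p = 0.0179). Irgm1, which regulates the other GTPases, had 149, 145 and 36.5 against 22.1, 30.2 and 27.2 (adjusted p = 0.0801), and here too wild-type replicate 3 lay near the mutant libraries. Gbp2 and Gbp5 were at -0.61 and -0.81 with adjusted p of 0.101 and 0.0604, while Gbp3 and Irgm2 were at -0.02 and -0.10. Members of these families are near-identical in sequence, so fragments shared among them may have been split by the authors' counting.

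Promoters of these genes were searched for letters of the interferon-stimulated response element, a motif bound by interferon regulatory factors, spelled GAAA, any 2 bases and GAAA and read on both strands. Of 27025 genes with a promoter in RefSeq, 250 bases before to 50 after the start, 3.99% held it, and 4.04% of the 7703 tested genes that matched by symbol. It was present in 16 of 32 matched interferon-stimulated genes (50%) and in all 5 matched guanylate-binding proteins and GTPases, Gbp2, Gbp3, Gbp5, Irgm1 and Irgm2. Among the genes past 0.05, it was found in 12 of 57 matched lower genes (21.1%) and in 0 of 104 matched higher genes. The 12 were Aif1, BC147527, Cxcl10, Ddx58, H2-T22, Ifi208, Ifi213, Ifi214, Mmp13, Ptgs2os2, Serpinb9 and Trim21. Of these, BC147527 met the filter on low values only through TLR4-WT LPS, where it was high, so it is no support for this share. A match is a description of these letters and not evidence of binding. The promoters of Serpinb9, past 0.01, and of Cxcl10, a member of the list, are printed 5′ to 3′ on the gene's own strand with the motif in capitals (GRCm38.p6, RefSeq). That of Serpinb9 spans chr13:33004291-33004590 on the plus strand with the motif's first base 46 bases before the start, and that of Cxcl10 spans chr5:92348840-92349139 on the minus strand with the motif 213 bases before it.
Serpinb9: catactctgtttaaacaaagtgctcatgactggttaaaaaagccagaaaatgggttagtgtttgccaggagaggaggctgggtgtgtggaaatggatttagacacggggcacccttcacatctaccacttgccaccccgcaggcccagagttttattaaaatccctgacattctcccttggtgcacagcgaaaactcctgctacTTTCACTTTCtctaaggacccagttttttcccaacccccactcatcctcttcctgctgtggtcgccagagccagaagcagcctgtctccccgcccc
Cxcl10: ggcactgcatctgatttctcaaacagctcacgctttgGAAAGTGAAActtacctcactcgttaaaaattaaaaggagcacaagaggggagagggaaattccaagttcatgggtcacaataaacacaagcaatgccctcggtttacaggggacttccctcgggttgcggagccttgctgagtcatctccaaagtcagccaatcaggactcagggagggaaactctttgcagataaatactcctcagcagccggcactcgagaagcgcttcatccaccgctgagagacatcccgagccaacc

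Classical, or M1, activation genes also had mostly lower means. Of 21 listed, 17 were tested, 15 lower and 2 higher, with a median of -0.71 and 12 lower without overlap (7.89% of all genes). Nos2, the inducible nitric oxide synthase (chr11:78920787-78960254, plus strand), had 406, 423 and 199 FPKM in TLR4-WT LPS and 74.0, 78.0 and 58.7 in TLR4-K810R LPS, so every mutant library was below the lowest wild-type one (-2.20 ± 0.43 (SE), adjusted p = 0.0237). Il12b, the p40 subunit of IL-12 and IL-23, fell from 10.1, 13.2 and 10.7 to 6.17, 3.74 and 3.21 FPKM (-1.23 ± 0.20 (SE), adjusted p = 0.0117). Marco, a scavenger receptor for bacteria, had 149, 141 and 133 against 89.9, 86.8 and 81.0 (-0.71 ± 0.13 (SE), adjusted p = 0.0169). With Cxcl10 these were the 4 list members past 0.05, all lower, where 0.814% of all genes were lower past it. Cd86, a costimulatory ligand for T cells, stood at 44.8, 47.7 and 27.3 against 23.2, 22.5 and 21.4 FPKM without overlap, but did not pass (adjusted p = 0.129).

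The cytokine genes Tnf, Il1b and Il6, targets of NF-κB, had overlapping libraries. Tnf had 227, 258 and 268 FPKM in TLR4-WT LPS and 264, 217 and 276 in TLR4-K810R LPS, a difference of 0.00 ± 0.13 (SE). Il1b had 1383, 1431 and 2026 against 1182, 985 and 1703 (-0.34 ± 0.26 (SE)), and Il6 25.3, 15.99 and 48.3 against 15.4, 11.5 and 17.3 (-0.85 ± 0.41 (SE), adjusted p = 0.247). The NF-κB feedback gene Nfkbia was at 0.08 ± 0.10 (SE) and the neutrophil chemokines Cxcl1, Cxcl2 and Cxcl3 were at 0.91 ± 0.48 (SE), 0.20 ± 0.38 (SE) and 0.32 ± 0.48 (SE), also with overlap. Over the NF-κB target list, 32 of 37 were tested, 23 lower and 9 higher, with a median of -0.28 and 15 lower without overlap (7.89% of all genes). Median-of-ratios scaling, which moved the median of all genes from 0.11 to -0.013, gave this list -0.436. Past 0.05 were 3 members, all lower, where 0.814% of all genes were lower past it. These were Il12b, the anti-inflammatory cytokine Il10 at 7.07, 8.24 and 2.80 against 1.93, 0.969 and 1.59 FPKM (adjusted p = 0.0382), and Tnfaip3. Tnfaip3, the A20 ubiquitin-editing enzyme, was at 142, 150.01 and 145 against 107, 101 and 125 (-0.39 ± 0.10 (SE), adjusted p = 0.0437). Its difference ran from -2.93 to -0.307 over the alternative settings. Saa3 was listed at 13.4 FPKM in TLR4-K810R LPS replicate 1 beside values from 8830 upward in the other 5 libraries, and its difference of -3.29 ± 2.59 (SE) rests on that library.

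CC chemokines had lower means throughout, 11 of 11 tested, with a median of -0.48 and 8 without overlap (7.89% of all genes were lower without it). Ccl8 alone passed 0.01, beside 0.0824% of all genes lower. Ccl7 stood at 118, 97.6 and 39.8 against 23.6, 32.2 and 29.6 FPKM and Ccl12 at 16.8, 13.7 and 6.87 against 4.09, 3.55 and 4.69, both monocyte attractants, with adjusted p of 0.0983 and 0.12. Ccl4 had 189, 206 and 179 against 101, 112 and 153 (adjusted p = 0.0567). Ccl5, the most abundant chemokine by FPKM, did not separate, with 7818, 9272 and 9345 against 9915, 6498 and 7539.7 FPKM. The plot of list members sets these lists side by side.

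**Figure D3:**
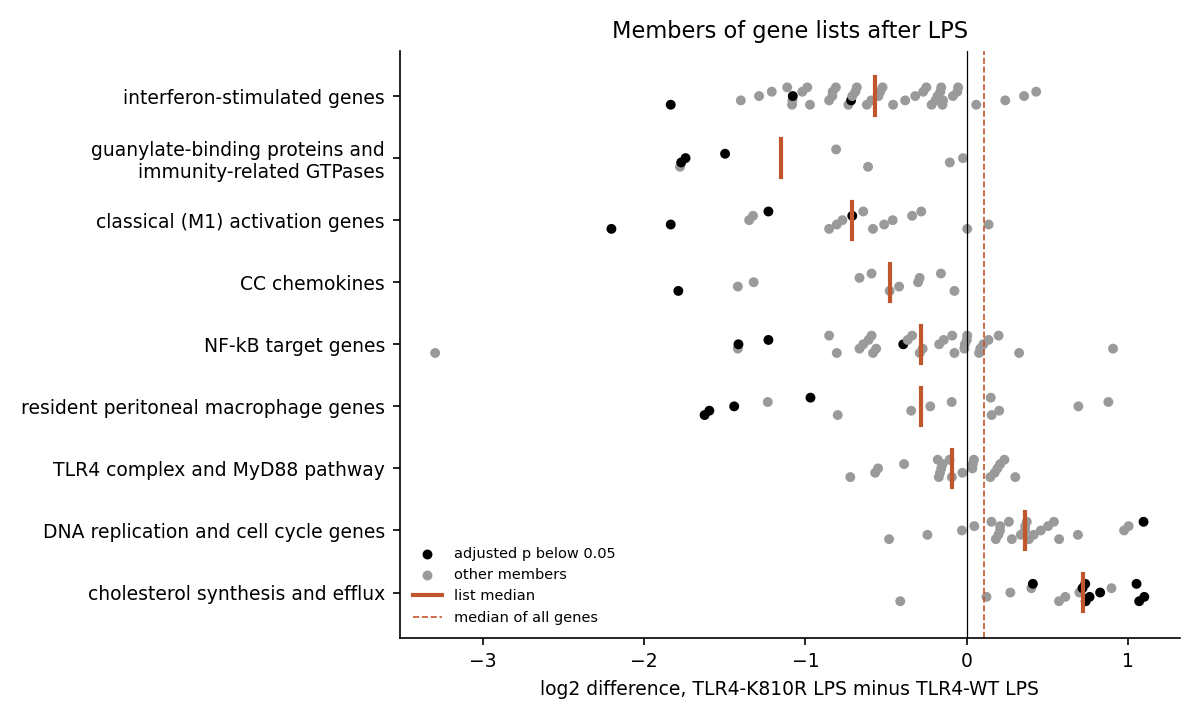
Log2 difference TLR4-K810R LPS minus TLR4-WT LPS (x axis) of each tested member of 9 gene lists (rows), with members past an adjusted p of 0.05 in black, the list median as an orange bar and the median of all genes, 0.11, as a dashed line. List medians run from -1.15 for guanylate-binding proteins and GTPases to 0.72 for cholesterol genes.

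Genes of sterol synthesis had higher means in TLR4-K810R. Cells make cholesterol from acetyl-CoA under the transcription factor SREBP-2, the product of Srebf2, which INSIG1 holds in check when sterols are plentiful. Of 20 listed genes of cholesterol synthesis and efflux, 17 were tested and 16 were higher in TLR4-K810R LPS, with a median of 0.72 beside 0.11 for all genes. Libraries did not overlap for 13, all higher, against 17.4% of all genes tested. Past 0.05 were 9, all higher, where 1.38% of all genes were higher past it. Among them were Sqle, Mvk, Srebf2, Lss, Hmgcs1, Insig1 and Cyp51. Srebf2 rose from 22.2, 20.6 and 30.1 to 40.5, 39.7 and 44.1 FPKM (0.76 ± 0.12 (SE), adjusted p = 0.0117), missing 0.01 narrowly. Mvk, mevalonate kinase, had 5.48, 4.63 and 6.75 against 14.4, 11.6 and 12.5 (1.07 ± 0.18 (SE), adjusted p = 0.0165). Wild-type replicate 3 was the highest of its group for these genes.

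Of the other members past 0.05, Hmgcs1, which condenses acetyl units at the head of the pathway, stood at 11.8, 9.14 and 13.9 against 18.4, 22.5 and 18.6 FPKM (adjusted p = 0.0275). Insig1 stood at 16.6, 14.2 and 22.2 against 30.2, 31.0 and 27.7 (adjusted p = 0.0176), Lss, lanosterol synthase, at 2.97, 1.87 and 3.76 against 4.94, 6.66 and 5.67 (adjusted p = 0.0205), and Cyp51, lanosterol demethylase, at 7.26, 5.47 and 9.43 against 13.04, 13.4 and 11.3 (adjusted p = 0.0389). Each mutant library was above each wild-type one for these 4 genes. The efflux transporters Abca1 and Abcg1, which answer to the sterol sensor LXR, were at 0.12 ± 0.13 (SE) and -0.41 ± 0.28 (SE). In TLR4-WT this list stood at a mean log2(FPKM + 1) of 4.48 to 4.57 without LPS and at 3.26 to 3.79 with it. In TLR4-K810R it stood at 4.53 to 4.74 and at 4.07 to 4.24.

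A sterol regulatory element, searched as TCACNCCAC on both strands, occurred in 1.44% of all 27025 promoters and in 1 of 10 matched genes of this list, Hmgcs1. Its promoter, chr13:119690101-119690400 on the plus strand (GRCm38.p6, RefSeq), is printed with the element in capitals, 137 bases before the start. No match in the other 9 says only that these letters are not in the window.
Hmgcs1: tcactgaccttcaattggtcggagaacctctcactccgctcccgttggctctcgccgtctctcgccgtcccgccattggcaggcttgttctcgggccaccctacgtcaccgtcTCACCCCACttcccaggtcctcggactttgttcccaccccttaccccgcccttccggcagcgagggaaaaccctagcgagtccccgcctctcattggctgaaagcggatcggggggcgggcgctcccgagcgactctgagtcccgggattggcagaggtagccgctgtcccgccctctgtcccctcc

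Genes of resident peritoneal macrophages split. Of 22 listed, 14 were tested, 9 lower and 5 higher, with a median of -0.29, and 4 passed 0.05, all lower, where 0.814% of all genes were lower past 0.05 and 36.8% had lower means. The median moved to -0.534 without TLR4-K810R LPS replicate 1 and to -0.144 without its replicate 2, and it was -0.0467 with no filter on low values and -0.800 among genes of at least 5 FPKM. Besides Fcna these were Prg4, the lubricant proteoglycan, at 25.3, 29.2 and 11.8 against 9.12, 2.89 and 7.81 FPKM (adjusted p = 0.0455), Timd4, a receptor for phosphatidylserine on dying cells, at 6.17, 5.74 and 3.02 against 1.20, 0.865 and 1.36 (adjusted p = 0.0326), and Lyz1 at 32.8, 34.5 and 35.2 against 14.7, 19.3 and 17.2 (adjusted p = 0.0301). Gata6, the factor that defines the large resident macrophage, was not lower, at 0, 0.641 and 0.695 against 1.71, 1.29 and 1.78 FPKM (adjusted p = 0.101), and Adgre1, the F4/80 antigen, was at 0.15 ± 0.13 (SE). Complement genes, which macrophages make in quantity, had lower means for 12 of 14 tested, 8 without overlap (7.89% of all genes). Past 0.05 were C1qa at 142, 132 and 85.7 against 55.8, 64.8 and 57.6 (adjusted p = 0.0205) and C4b at 8.67, 8.85 and 5.88 against 3.24, 3.11 and 3.55 (adjusted p = 0.0193). C1qb and C1qc, the other chains of C1q, were at -0.75 and -0.76 without overlap and did not pass. Of the genes of antigen presentation to CD4 T cells, H2-Aa had 210.0, 204 and 171 against 102, 108 and 128 FPKM (adjusted p = 0.0169) and H2-Eb1 86.4, 106 and 95.6 against 54.3, 51.4 and 42.2 (adjusted p = 0.0252), whereas H2-Ab1 was at -0.09 with overlap. B cells also carry these class II genes, and their summed markers were lower in the same libraries, as given above.

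Among the remaining largest falls past 0.05, Ifi213 and Ifi208, interferon-inducible members of the PYHIN family of DNA sensors, had 40.4, 39.7 and 23.97 against 3.99, 10.2 and 11.4 and 28.1, 34.8 and 10.7 against 4.50, 4.91 and 5.33 FPKM (adjusted p = 0.0301 and 0.0301). Klrk1, the activating receptor NKG2D, had 7.38, 8.49 and 2.03 against 0.540, 0.944 and 0.149 (adjusted p = 0.0382). P2ry14, a receptor for UDP-glucose, had 5.58, 8.03 and 0.966 against 0, 0.916 and 0.271 (adjusted p = 0.0496). Igkv1-110, an antibody light chain segment, had 13.3, 0.909 and 2.67 against 0.142, 0 and 0.200 (adjusted p = 0.0417). Wild-type replicate 1 was far above the other libraries here.

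The remaining largest rises were mostly of low-level genes. Lair1, an inhibitory collagen receptor, was the largest, at 2.05, 8.11 and 2.64 against 16.4, 18.3 and 16.4 FPKM (1.95 ± 0.33 (SE), adjusted p = 0.0156). Aen, a p53-induced nuclease, had 5.49, 4.64 and 2.59 against 11.8, 14.6 and 14.1 (1.51 ± 0.27 (SE), adjusted p = 0.0169), and Tuba4a, a tubulin, 15.7, 12.4 and 18.8 against 24.9, 42.1 and 41.9 (adjusted p = 0.0437). Prl2c2, a proliferin with near-identical copies whose fragments cannot be assigned with certainty, had 0, 0 and 1.80 against 3.73, 4.28 and 2.87 (adjusted p = 0.0169), and it would not have met the filter without the TLR4-K810R libraries. Sprr2e, Tmem131l and Slc19a1 were also in this group, at 1.47, 1.32 and 1.16. Tfrc, the transferrin receptor, at 6.41, 3.69 and 7.28 against 12.1, 12.5 and 14.7 (adjusted p = 0.0301), and Gpi1, a glycolytic isomerase, at 59.4, 72.8 and 86.1 against 145, 145 and 120.3 (adjusted p = 0.0169), were the single members of the iron and glycolysis lists past 0.05. Over all genes, 63.2% had higher means and 1.38% were higher past 0.05. Of 25 tested genes of DNA replication and the cell cycle 22 were higher, with a median of 0.36, and Cdk1 at 1.12, 0.800 and 1.48 against 3.45, 4.53 and 2.76 FPKM was the one past 0.05 (adjusted p = 0.0458). That median was 0.144 without TLR4-WT LPS replicate 2 and 0.547 without replicate 3. Mean log2(FPKM + 1) of the cell cycle list was 1.878, 1.514 and 2.138 in the TLR4-WT LPS libraries and 2.155, 2.228 and 2.208 in the TLR4-K810R LPS libraries. Mesothelium and fibroblast markers had means of 2.936, 2.128 and 3.463 and of 3.095, 3.228 and 3.207 in the same libraries, and their part in the cell cycle values was not tested. In mock cells the cell cycle list had a median of 0.71, with 4 genes higher past 0.01 (0.927% of all genes).

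To place these differences on the LPS response without reusing the same libraries, genes were classed by their response in TLR4-K730R, LPS against mock, at an adjusted p of 0.01. Of the 905 genes higher after LPS in TLR4-K730R (9.32% of those tested), 630 (69.6%) were lower in TLR4-K810R LPS than in TLR4-WT LPS, with a median of -0.19. Of the 2568 genes lower after LPS there (26.5%), 1978 (77.0%) were higher, with a median of 0.20, while the 6234 genes in neither class had a median of 0.10. Scaling moved these medians, to -0.331 and 0.0781 with median-of-ratios scaling and to -0.225 and 0.108 with quantile normalization. At 0.05, the first class held 49 of the 79 lower genes and 3 of the 134 higher ones, and the second class 96 of the 134 higher and 4 of the 79 lower ones. Mean log2(FPKM + 1) over the 905 genes was 4.93 to 5.05 in the TLR4-WT LPS libraries and 4.74 to 4.78 in the TLR4-K810R LPS libraries, and over the 2568 genes 2.78 to 2.93 and 3.02 to 3.06. Neither class overlapped between the groups. The first class was also lower without LPS, by a median of -0.10 with 593 of 905 genes lower, at 3.23 to 3.30 in TLR4-WT and 3.045 to 3.14 in TLR4-K810R. The second class was likewise higher without LPS, by a median of 0.08 with 1667 of 2568 genes higher, at 3.854 to 3.871 and 3.904 to 4.011.

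**Figure D4:**
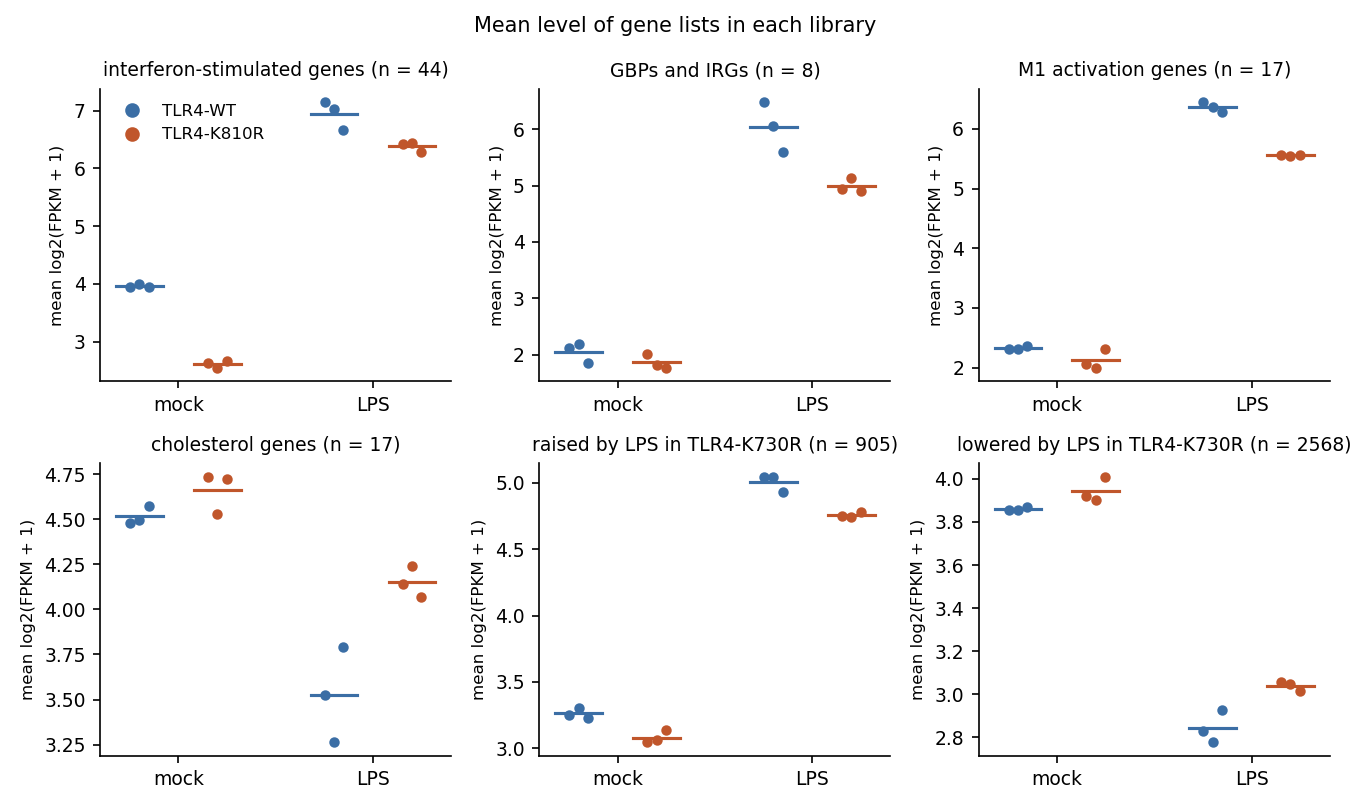
Mean log2(FPKM + 1) of 6 gene groups (panels, n tested genes in each title) in each library of TLR4-WT (blue) and TLR4-K810R (orange), mock on the left and LPS on the right of each panel, with a line at the mean of 3 libraries; the y axes do not start at 0. Interferon-stimulated genes lie lower in TLR4-K810R with and without LPS, and cholesterol genes separate with LPS.

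Differences between the genotypes were also there before LPS, and for interferon-stimulated genes they were wider then. In mock-treated cells 153 genes passed 0.01 between the same genotypes (1.58%), and 23 of 44 interferon-stimulated genes were among the lower ones (0.649% of all genes), with a list median of -1.20 beside -0.57 after LPS. Guanylate-binding proteins and GTPases had a mock median of -0.26 and cholesterol genes one of 0.25, with no member past 0.01. Of the 13 genes called after LPS, Fcna, Retnla and Cd5l were also lower in mock cells, at differences of -1.46 ± 0.17 (SE), -3.23 ± 0.33 (SE) and -1.18 ± 0.16 (SE), with adjusted p of 0.000104, 4.17e-05 and 0.000523. Cxcl10 and Gbp4 did not pass in mock cells, at -0.30 and -0.33, and Il12b was listed at 0 in all 6 mock libraries. In mock cells, summed intestinal epithelium markers were 3.998 to 4.67 FPKM in TLR4-WT and 83.2 to 189 in TLR4-K810R, and mesothelium and fibroblast markers 56.2 to 81.5 and 185 to 485, and their part in the mock differences was not tested.

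Whether the genotype difference itself changed with LPS was tested by the interaction of genotype and treatment, which 12 genes passed at 0.01 (0.124%), 10 of them higher with LPS than without (0.103%) and 2 lower (0.0206%). These calls depended on the libraries fitted, as fits without 1 LPS library gave 6 to 13, of which 6 to 10 were among the 12. Without replicate 3 of all groups there were 20, with 6 of the 12 among them, without replicate 1 of all groups 9, with 0 of the 12, and without replicate 2 of all groups 0, where limma had 1025 genes at an unadjusted p below 0.05. All 12 are described, 8 of them (H2-M2, Ifit3, Oas3, Zbp1, Ccl5, Plac8, Acp5 and Tgfbi) chosen after their values were seen. Ifit3, an antiviral protein, stood in mock cells at 29.96, 34.6 and 34.1 FPKM in TLR4-WT and 4.17, 3.91 and 3.60 in TLR4-K810R, and after LPS at 538, 545 and 386 and 307, 313 and 324. The difference thus went from -2.79 to -0.62 (interaction 2.17 ± 0.23 (SE), adjusted p = 0.000231). Ccl5, the chemokine RANTES, went from 80.2, 76.2 and 82.2 against 22.1, 18.5 and 19.2 in mock cells to the overlapping levels given above (interaction 1.79 ± 0.21 (SE), adjusted p = 0.000612). Oas3, an RNA-activated antiviral synthetase, Zbp1, a sensor of Z-form nucleic acid, the class I gene H2-M2 and Marco showed the like, at differences of -2.56, -1.66, -2.54 and -1.91 without LPS and at -0.16, -0.27, 0.12 and -0.71 with it. For these 6 genes the gap was wide in mock cells and narrower after LPS, with H2-M2 changing sign. In TLR4-K730R, LPS against mock gave Ifit3, Oas3 and Zbp1 rises of 5.84, 3.55 and 4.97. These rises were 3.84, 1.44 and 3.33 in TLR4-WT and 6.01, 3.83 and 4.71 in TLR4-K810R. H2-M2, Ccl5 and Marco rose by 4.10, 7.35 and 0.43 in TLR4-K730R, 2.32, 6.77 and 0.0026 in TLR4-WT and 4.98, 8.56 and 1.21 in TLR4-K810R. A larger rise than in TLR4-WT was thus not particular to TLR4-K810R.

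The remaining 6 also had mean differences of opposite sign without and with LPS. Acp5, the tartrate-resistant phosphatase, went from -0.59 ± 0.11 (SE) to 0.45 ± 0.11 (SE), Tgfbi from -0.61 ± 0.11 (SE) to 0.41 ± 0.11 (SE), Adamtsl5 from -0.29 ± 0.13 (SE) to 0.94 ± 0.13 (SE) and Ralgapa2 from -1.01 ± 0.27 (SE) to 1.499 ± 0.27 (SE), the last with at most 0.0413 FPKM in TLR4-WT LPS. In the other direction, Plac8 stood in mock cells at 0.540, 0.897 and 0.736 FPKM in TLR4-WT and 4.998, 2.89 and 8.07 in TLR4-K810R and after LPS at 23.5, 13.9 and 13.2 and 4.53, 4.61 and 3.87 (interaction -3.49 ± 0.44 (SE), adjusted p = 0.00124). Mt2, a zinc-binding metallothionein, stood in mock cells at 9.75, 9.62 and 10.3 and 27.4, 22.9 and 49.2 and after LPS at 114, 98.7 and 74.4 and 57.4, 58.7 and 54.3 (interaction -2.30 ± 0.36 (SE), adjusted p = 0.00962). Both genes were higher in mutant cells without LPS (adjusted p = 0.00381 and 0.00279). With LPS, Plac8 was lower (adjusted p = 0.0169), while Mt2 stood at -0.72 ± 0.26 (SE) and did not pass (adjusted p = 0.126).

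**Figure D5:**
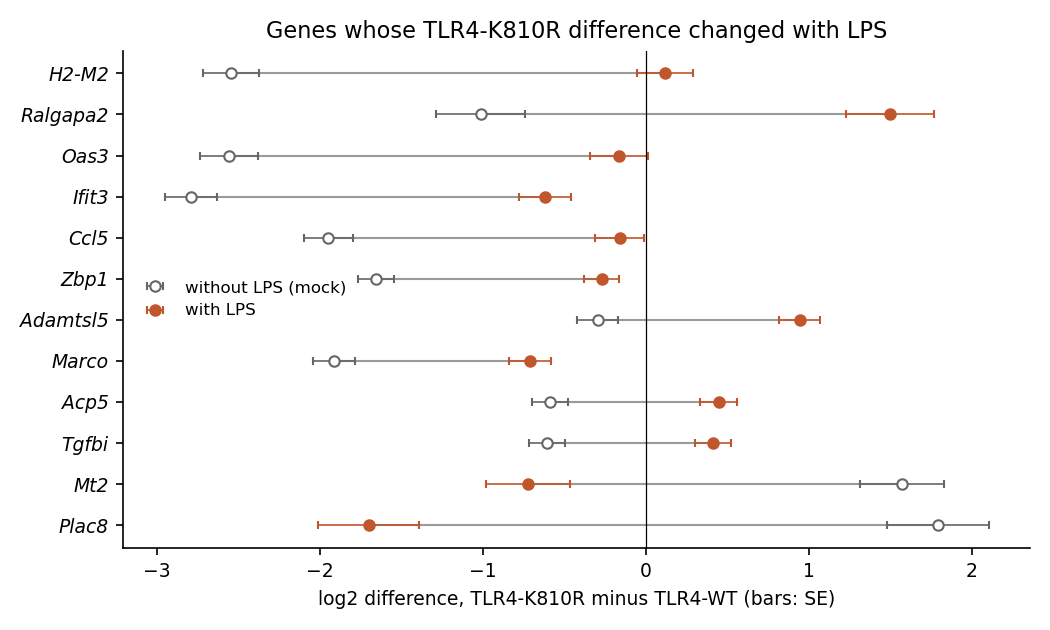
Log2 difference TLR4-K810R minus TLR4-WT (x axis, bars: SE) without LPS (open circles) and with LPS (filled circles) for the 12 genes (rows) whose difference changed with LPS at an adjusted p of 0.01, joined by a line. For 10 genes the filled circle lies to the right, by 1.02 for Tgfbi to 2.66 for H2-M2, and for Mt2 and Plac8 to the left.

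The other knock-in gave a background for genotype differences in LPS-treated cells. Between TLR4-K730R LPS and TLR4-WT LPS, which shares its control libraries with the comparison above, limma called 0 genes at 0.01 and 0 at 0.05, with 746 at an unadjusted p below 0.05 (7.69%). These counts rest on a pair of libraries that stand apart, TLR4-WT LPS replicate 3 and TLR4-K730R LPS replicate 3, the latter with a library weight of 0.46. Without TLR4-K730R LPS replicate 3 there were 2 calls at 0.01 and 6 at 0.05, without TLR4-WT LPS replicate 3 there were 0 and 1, and without both there were 161 and 469, in fits chosen after the data were seen. The medians were -0.22 for interferon-stimulated genes, -0.59 for guanylate-binding proteins and GTPases, 0.05 for M1 genes and -0.0024 for cholesterol genes. Without both libraries they were -0.603, -0.996, -0.0746 and 0.0299.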

How the data were processed

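Each of the 18 libraries, 3 per genotype and treatment, came with 1 table of transcript events (first exons, last exons, skipped exons and others), and the authors gave each event a value in FPKM. Aligner, assembler and annotation are not given in the sources used here. The submitters' processing notes name a human build, hg18, but the coordinates matched mouse GRCm38 with GENCODE vM21 genes. First-exon events of a gene were summed, as were its last-exon events, and the larger sum, as log2(FPKM + 1), was the gene's value. Genes that reached 1 FPKM in 3 or more libraries were fitted in limma 3.58.1 (R 4.3.3) as 6 groups with an intensity trend, and p-values were Benjamini-Hochberg adjusted over all 9707 genes. The fit was also run on simulated data with the spread pooled over all 6 groups. Over 20 runs with 200 changed genes, it recovered 60.5% of 2-fold and 93.5% of 4-fold changes at 0.01, with 1.06% of calls false. The simulated noise was normal, independent between genes and without an outlying library, and only genes above a set level were changed. These rates therefore do not describe the error of the calls in the real libraries. The comparison, the gene lists and the named genes were chosen with earlier results of these data known. Named genes were those past 0.01, the 10 largest rises and falls past 0.05 without overlap, the receptor genes with cytokine and activation genes of the study, and up to 4 members per list by smallest p. Other list members are named for their role in the list, and a few members counted in the lists are not reported here by name. Alternatives changed the pseudocount, filter, scaling, weights, block, groups fitted, event rows and libraries. With 3 libraries a group, an exact permutation test of 1 gene cannot go below 0.1, so none was run. No read counts were given, so no interval for counting error could be set.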

Additional observations from a re-analysis of the deposited data

Results flagged for a closer look

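Among the genes named by the rule, 4 had a genotype difference that changed with LPS by the interaction of genotype and treatment in limma, with Benjamini-Hochberg adjusted p below 0.01. Adamtsl5 went from -0.29 without LPS to 0.94 with it, a change of 1.24 (adjusted p = 0.00536), at 24.9, 20.3 and 22.5 FPKM in TLR4-WT mock and 16.7, 20.2 and 17.9 in TLR4-K810R mock. Ralgapa2 went from -1.01 to 1.499, a change of 2.51 (adjusted p = 0.00764), at 4.10, 2.84 and 1.60 FPKM in TLR4-WT mock and 0.369, 0.822 and 1.49 in TLR4-K810R mock. Marco went from -1.91 to -0.71, a change of 1.20 (adjusted p = 0.00764), and Mt2 from 1.57 to -0.72, a change of -2.30 (adjusted p = 0.00962). Groups of 3 libraries were too small for a test of single outlying values.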

How the results depend on the processing

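Against 13 calls at 0.01 (5 higher and 8 lower) and 12 genes whose difference changed with LPS, these settings moved a count by over 1.5 times. Library weights called 366 (223 higher and 143 lower, 37 changing with LPS), and the 0.05 threshold 213 (134 and 79, 57 changing). The 2 groups alone gave 0 (0 and 0), a pseudocount of 5 gave 25 (8 and 17), a pseudocount of 0.1 gave 8 higher, no filter gave 8 in all with 4 lower, and first-exon sums gave 8 (3 and 5). Median-of-ratios scaling gave 15 lower beside 4 higher and quantile normalization 3 higher and 14 lower, with the median of all genes at -0.013 and 0.0174. A fit of 4 groups, and genes with both exon sums within 1.1 times of each other, each gave 3 higher. Replicate numbers did not pair the libraries (correlations of deviations from -0.052 to 0.0519 over all pairs), and with the replicate block 3 genes were called (1 higher and 2 lower), and 6 changed with LPS.

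Leaving out 1 library or 1 replicate number gave 1 to 283 calls, 0 to 198 higher, 1 to 117 lower and 0 to 20 genes changing with LPS. The 0 came without replicate 2 of all groups, with 1025 genes at an unadjusted p below 0.05. Without replicate 3 of all groups there were 231 calls (114 higher), and without WT LPS replicate 3 there were 283 (198 higher and 85 lower), with 1086 genes past 0.05. List medians then ranged from -0.582 to -0.393 for CC chemokines, 0.499 to 0.874 for cholesterol genes, -0.743 to -0.623 for M1 genes (-0.651 and -0.63 without replicates 1 and 2 of all groups), -0.796 to -0.418 for interferon-stimulated genes (-0.466 and -0.763 without WT LPS replicates 1 and 3) and -0.534 to -0.144 for resident macrophage genes (-0.521 without replicate 1 of all groups).

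In a setting added after the data were seen, TLR4-K730R LPS against TLR4-WT LPS went from 0 calls at 0.01 to 2 without TLR4-K730R LPS replicate 3, 0 without TLR4-WT LPS replicate 3 and 161 without both.

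None of the 11 list medians the report turns on changed sign. Moved by more than 1 SD between libraries were the TLR4 pathway (median-of-ratios -0.237, last-exon sums -0.169, sums within 1.1 times -0.166), guanylate-binding proteins and GTPases (pseudocount of 5 -0.780, no filter -0.711, all rows -0.802, last-exon sums -1.74), resident macrophage genes (no filter -0.0467, at least 5 FPKM -0.800, first-exon sums -0.722, last-exon sums -0.678, within 1.1 times -0.800), CC chemokines (median-of-ratios -0.631), M1 genes (median-of-ratios -0.863) and cholesterol genes (pseudocount of 5 0.455). So were genes raised by LPS in TLR4-K730R (median-of-ratios -0.331) and genes lowered there (pseudocount of 5 0.109, median-of-ratios 0.0781, quantile 0.108).

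Of the values of single genes, 2295 were counted as keeping direction and side of the threshold, 128 lost the call, 163 gained it and 9 turned sign, none of them a called gene. Turns from or to a value next to 0 were not counted. Tnf, at 0.0027 in the main fit, was therefore not among the 9, though it ran from -0.151 to 0.13. Tirap turned under median-of-ratios (-0.106), quantile normalization (-0.048), last-exon sums (-0.169), without WT LPS replicate 1 (-0.0664), without K810R LPS replicate 1 (-0.0576) and without replicate 1 of all groups (-0.162), with values up to 0.142 (without K810R LPS replicate 3) among single libraries left out and 0.168 without replicate 3 of all groups, Tlr4 without replicate 1 of all groups (0.0282), and with last-exon sums Azi2 (0.0874) and H2-DMb2 (-0.037). The cause was not tested. Depth is unknown, so precision rests on 3 libraries per group.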

Other observations

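Class I antigen presentation genes, which display peptides to CD8 T cells, had lower means for 15 of 21 tested members after LPS, with a median of -0.27 and 2 past 0.05. In mock cells all 21 had lower means and 6 passed 0.01, where 0.649% of all genes were lower past it. Their median LPS response, LPS minus mock, was 1.742 in TLR4-WT and 2.259 in TLR4-K810R, larger in size in TLR4-WT for 3 of 21. Respiratory chain subunits had higher means for 19 of 25, with a median of 0.21, 10 higher and 2 lower without overlap and none past 0.05. Over all genes, 63.2% had higher means, 17.4% were higher without overlap and 7.89% lower without it. Beside 0.814% of all genes lower past 0.05, cytokines and growth factors were lower for 17 of 21 (median -0.34, 2 past 0.05), M2 genes for 12 of 18 (median -0.17, 3 past 0.05), CXC chemokines for 7 of 12 (median -0.10, 1 past 0.05), scavenger receptors for 8 of 11 (median -0.05, 2 past 0.05) and the TRIF, TRAM and IRF3 pathway for 7 of 9 (median -0.09, none past 0.05). Cxcl11, counted among the lower CXC chemokines, met the filter on low values only through TLR4-WT LPS, where it was high. NF-κB subunits and inhibitors were higher for 9 of 14, iron genes for 7 of 13, glycolysis genes for 9 of 16 and metallothioneins and zinc transporters for 3 of 7, with medians of 0.09, 0.07, 0.09 and -0.20.

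Summed markers of other cells not given above were 1.78 to 2.72 FPKM in TLR4-WT LPS and 0.731 to 1.72 in TLR4-K810R LPS for eosinophils, 4.27 to 6.71 and 3.03 to 5.19 for dendritic cells, and 0.339 to 1.17 and 0.0950 to 2.54 for erythroid cells. The κB site, spelled GGGA, any base and TTTCC and read on both strands, was found in 0.466% of all promoters, in 0 of 57 matched lower genes and in 0 of 104 matched higher genes past 0.05, in Gbp5 among 5 matched guanylate-binding proteins and GTPases, and in Il6 among 11 matched M1 genes.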
